A study of Homo sapiens with 9 samples.

Results

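The genes described here encode the proteins of synaptic vesicles and of the machinery that docks, primes and fuses vesicles with a membrane. Members were chosen by gene symbol alone, as the protein-coding genes of the synaptotagmin, syntaxin, VAMP, RAB3, complexin, SV2, RIMS, UNC13 and STXBP families together with SYN1, SYN2, SYN3, SYP, SNAP25, SNAP23, BSN, PCLO and NSF. This gave 71 genes of the 31589 genes measured in the series, or of 17226 protein-coding genes. By function 39 were assigned to the nerve terminal and 32 to general membrane traffic. The nerve terminal class also holds synaptotagmins of other vesicles or without calcium binding, such as SYT4, SYT10 and SYT13. Messenger RNA was measured by bulk RNA sequencing of whole spinal cord organoids (SCOs) in 9 libraries, 3 for each of 3 conditions. The SCOs came from WTC, a human induced pluripotent stem cell line, whose genotype the labels give as WT. The SCOs for sequencing were grown from edited clones of WTC with a reporter in the SOX10 gene, some of which carry small insertions or deletions on the other SOX10 allele, and several SCOs were pooled for RNA. In a figure legend the paper assigns each sequenced library of a condition to a different clone of 3. Column names of the same replicate number share a prefix (C4, C5 or C6) in the 3 conditions, and whether a prefix marks a clone is not stated in the labels. All 3 conditions were kept in FGF. Vehicle received FGF alone, the VPA condition received valproic acid, an anti-seizure drug that inhibits histone deacetylases, and the VPA + Rapamycin condition received valproic acid and Rapamycin, an inhibitor of the kinase mTOR. The labels give an exposure of 96 h for each condition.

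A synaptic vesicle fuses when a SNARE protein on the vesicle (VAMP2) zippers with SNARE proteins on the plasma membrane (a syntaxin such as STX1A, and SNAP25). The UNC13 proteins prepare this complex, complexins clamp and assist it, and a synaptotagmin binds calcium and triggers fusion. RIMS proteins, BSN (Bassoon) and PCLO (Piccolo) build the active zone where this happens, while syntaxins and VAMPs outside the terminal carry the same reaction in the Golgi, endosomes and plasma membrane of every cell. In a developing spinal cord the terminal genes rise as progenitors become neurons.

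The libraries held 15290436 to 17417478 reads counted on genes, and 3 counts in a library correspond to between 0.172 and 0.196 CPM (counts scaled to a fixed library size). The members took 42653 to 50950 reads of each library. Markers of neurons and progenitors were present in every library, with summed normalised counts of 25494 to 51272 over 12 pan-neuronal genes and of 41693 to 53965 over 8 neural progenitor genes. The 8 HOX genes of spinal position summed to between 8746 and 21117. The endothelial markers PECAM1 and CDH5 summed to at most 24 counts. Replicate libraries differed beyond sampling noise in each condition, with chi-square values per gene between 4.53 and 35, and the highest belonged to vehicle replicates 1 and 3. Vehicle replicate 3 stood apart in neuronal genes, with a pan-neuronal sum of 51272 against 28448 and 36952 in the other vehicle libraries, and its 8 HOX genes summed to 11995 against 21117 and 21082. Main counts against vehicle are therefore also given without it. In whole SCOs fewer cells of a type and less RNA per cell cannot be told apart. Nothing in the labels says that libraries are separate cultures, though by the paper's legend those of a condition come from different clones. The p-values measure the spread between these libraries, and the main fits do not pair them.

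Levels of different genes were compared per length, as FPKM (fragments scaled by gene length and library size). In vehicle, 53 of the 71 genes reached a mean of at least 1 FPKM, 19 reached at least 10, and 4 stayed under 0.1. The median gene had 3.29 FPKM for vehicle, 4.54 for VPA and 4.43 for VPA + Rapamycin. SYT11, a synaptotagmin that does not bind calcium, had the highest level at 71.4 ± 12.4 FPKM (SD, n = 3). SYT4 followed at 31.4 ± 11.9 and SYT1, the calcium sensor of fast release, at 28.4 ± 7.70, and the libraries of SYT4 and SYT1 overlapped. The housekeeping vesicle SNARE VAMP3 (26.6 ± 1.24), the Golgi syntaxin STX16 (25.1 ± 0.894), the vesicle glycoprotein SV2A (24.2 ± 1.39) and VAMP2 (20.4 ± 0.609) came next. Among the plasma membrane partners of VAMP2, SNAP25 had 15.9 ± 3.16 FPKM, and STX1A, with 4.43 ± 0.825, lay below every library of SNAP25. Of the complexins CPLX2 (17.6 ± 2.06) was above CPLX1 (4.87 ± 1.15). RIMS3, a short RIM protein of the active zone, had 18.8 ± 2.31 FPKM and the long form RIMS1 0.294 ± 0.123. The synaptophysin gene SYP stood at 5.45 ± 0.946 FPKM and the synapsin gene SYN1 at 4.13 ± 0.584, and their libraries overlapped. The calcium sensors SYT9 (0.374 ± 0.184), SYT10 (0.150 ± 0.0949) and SV2B, a second SV2 glycoprotein, were at the low end in vehicle.

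**Figure D1:**
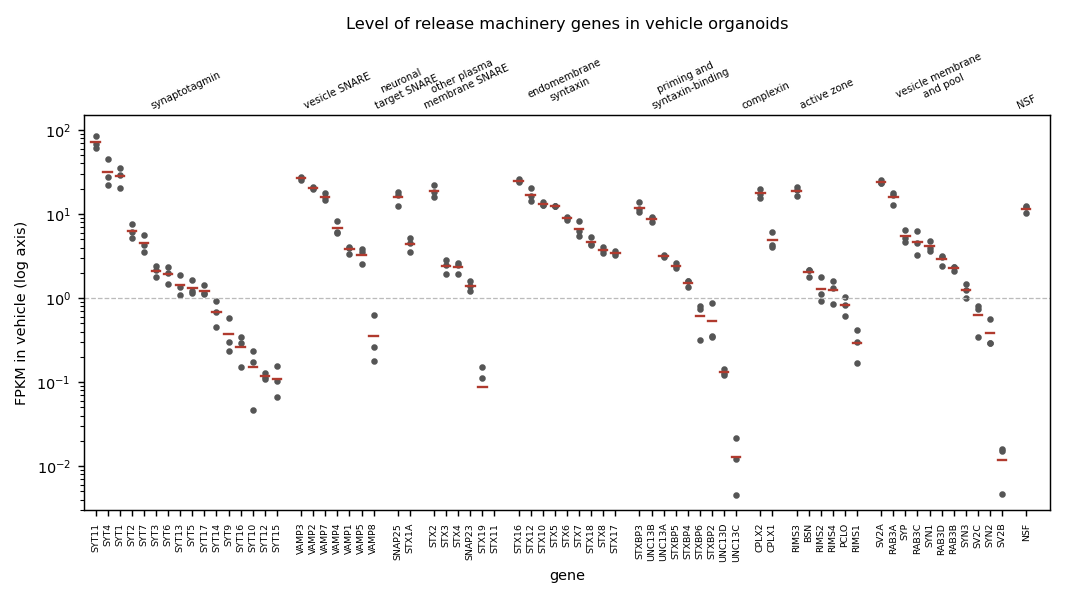
Level of 69 genes in vehicle SCOs, as FPKM on a log axis, grouped by role along the horizontal axis. Dots are the 3 vehicle libraries and red lines their mean, and a dot at 0 is not drawn. SYT11 is the highest gene, and STX11, which is at 0 in all 3 libraries, has no mark.

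VPA against vehicle asks what valproic acid changed. Of 68 members tested, 19 were higher and 12 lower with VPA at an adjusted p of at most 0.05, or 27.9% and 17.6%. Among all 17360 genes tested, 16.4% were higher and 15.7% lower (32.1% in either direction), so the share of members that were lower was close to the background and the share that were higher was above it. The background includes genes that are not protein-coding and was not matched to the members in level. No test of the shares was made, here or in the later comparisons. The median log2 fold change of the members tested was 0.19, beside -0.0030 over all genes. The raised genes include SV2B, VAMP8 and SYT10, which had under 10 reads in at least 1 vehicle library. They passed the filter on low counts only with their higher VPA libraries counted, so their entry depended on the group where they are high. SV2B and VAMP8 were not tested in VPA + Rapamycin against vehicle. With at least 10 counts required in every library, 16 of 64 members tested were higher and 12 lower, with a median of 0.12. Among nerve terminal genes 11 of 38 rose and 9 fell, and among general trafficking genes 8 of 30 rose and 3 fell. STX11, STX19 and UNC13C did not pass the filter on low counts. Without vehicle replicate 3 the counts were 23 higher and 12 lower (13 and 9 of the nerve terminal genes, 10 and 3 of the trafficking genes). They were 13 and 7 without VPA replicate 1, 14 and 6 without VPA replicate 2, and 13 and 8 without VPA replicate 3. The share over all genes was taken for the main fit only, so these counts cannot be set against a background. Of the 31 calls, 14 were kept in all 6 fits that left out 1 library each, among them SYT3, SYT6, SYT9, SYT10, SYT13, VAMP5, STX3, RIMS4, SYN2, RAB3B and UNC13A of the raised genes and CPLX2 and STXBP5 of the lowered ones.

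**Figure D2:**
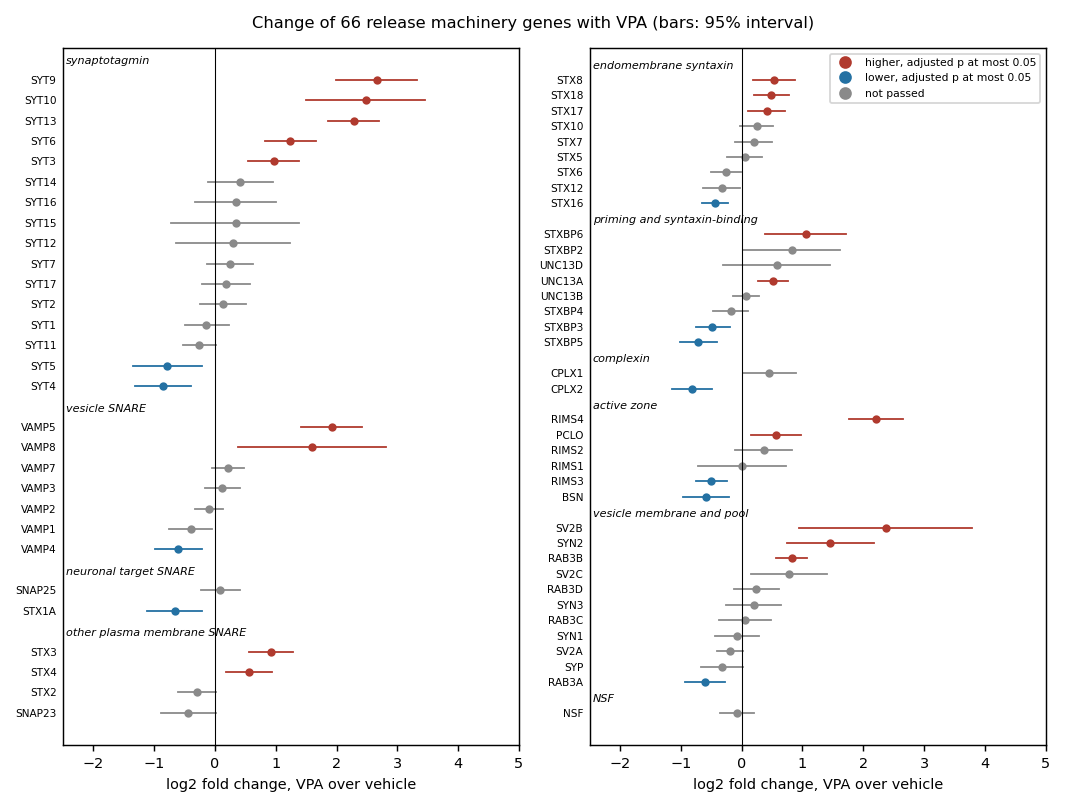
Log2 fold change of VPA over vehicle for 66 of the genes tested, by role, with bars for the 95% interval. Red genes are higher and blue genes lower at an adjusted p of at most 0.05, and grey genes did not pass. In most roles raised and lowered genes stand side by side, and the changes above 1 are all increases.

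The synaptotagmins are the largest family, and 5 of 16 rose with VPA while 2 fell. SYT9, a calcium sensor of fast release related to SYT1, had normalised counts of 18.6, 45.7 and 23.8 in vehicle and 180.0, 186 and 188 in VPA. The VPA libraries were all above the vehicle libraries and close to each other (log2 fold change 2.66 ± 0.30 (SE), adjusted p = 0.000143). The overlapping gene AC107884.1, with a mean count 15.7% of that of SYT9, may share some of these reads. SYT10, a sensor of peptide and growth factor release, had 3.92, 19.6 and 14.5 in vehicle and 66.9, 68.0 and 75.9 in VPA (log2 fold change 2.48 ± 0.45 (SE), adjusted p = 0.00194). Vehicle replicate 1 holds only 4 reads of SYT10, and the overlapping gene AC023158.1 has 19.1% of its mean count. SYT13, a synaptotagmin that does not bind calcium, had 171, 99.1 and 122 in vehicle and 713, 603 and 596 in VPA and its groups did not overlap (log2 fold change 2.28 ± 0.19 (SE), adjusted p = 2.3e-05). SYT6 had 202, 169.9 and 124 in vehicle and 435, 334 and 405 in VPA (log2 fold change 1.24 ± 0.19 (SE), adjusted p = 0.000849). SYT3, a high-affinity calcium sensor, had 138, 111 and 151 in vehicle and 245, 228 and 308 in VPA (log2 fold change 0.97 ± 0.19 (SE), adjusted p = 0.0031). In both genes the lowest VPA library was above the highest vehicle library.

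The synaptotagmins that fell were SYT4 and SYT5. SYT4, found on dense-core and postsynaptic vesicles, had normalised counts of 1621, 2026 and 3299 in vehicle and 1324, 1158 and 1341 in VPA. All VPA libraries lay below all vehicle libraries, among which replicate 3 was the highest (log2 fold change -0.86 ± 0.21 (SE), adjusted p = 0.00985). SYT5, a dense-core vesicle sensor, had 102, 109 and 144 in vehicle and 49.2, 78.2 and 77.8 in VPA (log2 fold change -0.79 ± 0.26 (SE), adjusted p = 0.0367). The call of SYT4 was lost without VPA replicate 2 (adjusted p = 0.0513) and that of SYT5 without vehicle replicate 2, vehicle replicate 3, VPA replicate 1, VPA replicate 2 or VPA replicate 3 (adjusted p = 0.0665 to 0.143). SYT11, SYT1 and SYT2, which with SYT4 had the highest mean FPKM of the family in vehicle, did not pass. SYT1 had 2198, 3156 and 3843 in vehicle and 2681, 2707 and 2976 in VPA, so that the VPA libraries lay within the range of vehicle (log2 fold change -0.14, 95% interval -0.50 to 0.23, adjusted p = 0.571). SYT11 had a log2 fold change -0.26, 95% interval -0.53 to 0.01, adjusted p = 0.125, and SYT2, the sensor of fast spinal and motor synapses, a log2 fold change 0.13, 95% interval -0.24 to 0.51, adjusted p = 0.585. Without vehicle replicate 1, SYT1 and SYT11 were called lower (adjusted p = 0.026 and 0.0185), and in no other alternative. PPP1R12B overlaps SYT2 on the other strand with 87.5% of its mean count. The other 6 synaptotagmins, SYT7, SYT12, SYT14, SYT15, SYT16 and SYT17, had log2 fold changes between 0.18 and 0.41 and did not pass.

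Start regions of 6 genes are shown, 3 that rose with VPA (SYT10, SYN2 and VAMP5) and 3 that fell (RIMS3, STX1A and STXBP3), chosen with their values known as genes whose RefSeq start lies within 25 bases of the gene start in the tables. Each line gives the 250 bases before the start, 5′ to 3′ on the strand of the gene, from RefSeq on GRCh38.p14. They lie at chr12:33439820-33440069 (minus strand), chr3:12004138-12004387 (plus), chr2:85584181-85584430 (plus), chr1:40665683-40665932 (minus), chr7:73719670-73719919 (minus) and chr1:108746424-108746673 (plus), each upstream of the first exon, apart from the last 23 bases of the VAMP5 window and the last 3 of the STX1A window, which lie in it by the gene starts of the tables. Capitals mark the GC box, searched as GGGCGG on either strand.
SYT10: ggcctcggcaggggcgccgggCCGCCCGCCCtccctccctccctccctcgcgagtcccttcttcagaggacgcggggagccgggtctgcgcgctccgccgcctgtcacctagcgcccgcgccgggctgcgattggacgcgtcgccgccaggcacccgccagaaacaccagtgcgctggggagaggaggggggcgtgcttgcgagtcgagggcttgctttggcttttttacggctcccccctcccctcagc
SYN2: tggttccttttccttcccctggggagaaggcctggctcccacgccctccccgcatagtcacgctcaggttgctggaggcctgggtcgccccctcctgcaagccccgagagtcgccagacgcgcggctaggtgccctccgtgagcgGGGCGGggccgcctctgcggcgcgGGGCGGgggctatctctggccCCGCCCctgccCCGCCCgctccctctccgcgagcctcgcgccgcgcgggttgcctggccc
VAMP5: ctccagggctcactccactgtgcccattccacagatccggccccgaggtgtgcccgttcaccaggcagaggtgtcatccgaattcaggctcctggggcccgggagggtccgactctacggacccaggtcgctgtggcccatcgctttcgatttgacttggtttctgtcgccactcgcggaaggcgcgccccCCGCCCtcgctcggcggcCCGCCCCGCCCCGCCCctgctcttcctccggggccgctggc
RIMS3: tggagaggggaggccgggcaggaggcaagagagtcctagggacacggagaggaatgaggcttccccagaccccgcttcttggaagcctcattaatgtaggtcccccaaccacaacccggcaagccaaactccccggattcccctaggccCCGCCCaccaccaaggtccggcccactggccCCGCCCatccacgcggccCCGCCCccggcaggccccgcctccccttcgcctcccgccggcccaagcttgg
STX1A: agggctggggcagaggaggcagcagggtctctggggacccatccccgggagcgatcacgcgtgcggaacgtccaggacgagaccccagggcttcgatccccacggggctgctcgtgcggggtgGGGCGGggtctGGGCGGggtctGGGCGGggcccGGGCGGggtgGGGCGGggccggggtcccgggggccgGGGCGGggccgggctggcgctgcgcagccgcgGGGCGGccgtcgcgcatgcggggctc
STXBP3: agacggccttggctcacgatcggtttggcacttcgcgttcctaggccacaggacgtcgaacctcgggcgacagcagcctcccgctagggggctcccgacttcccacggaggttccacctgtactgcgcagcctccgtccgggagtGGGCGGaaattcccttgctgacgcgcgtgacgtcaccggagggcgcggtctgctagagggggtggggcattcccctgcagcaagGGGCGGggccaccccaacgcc
Each of the 6 windows held at least 2 GC boxes, and they held between 16 and 31 CG dinucleotides. RefSeq windows were matched for 57 of the 71 members, with 81 windows because some genes have several starts. A GC box was in 53 of the 81 windows (65.4%), beside 14973 of 35116 windows of all genes (42.6%). The windows of all genes cover 27305 genes, more than the 17226 protein-coding genes of the series. They are thus not matched to the members, which are all protein-coding. It was in 20 of 29 windows of members that rose with VPA, 10 of 12 of members that fell and 22 of 37 of members that did not pass. The median window of the members held 21 CG dinucleotides and that of all genes 11. Windows of 1 gene share sequence, and no test was made.

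Among the vesicle SNAREs, VAMP5 and VAMP8 rose and VAMP4 fell, out of 7. VAMP5, a VAMP of muscle and other non-neuronal plasma membranes, had normalised counts of 51.9, 34.8 and 47.6 in vehicle and 185, 162 and 163 in VPA and all VPA libraries were above all vehicle libraries (log2 fold change 1.92 ± 0.23 (SE), adjusted p = 0.000176). VAMP8, an endosomal SNARE, was at 3, 4 and 10 reads in vehicle and 15, 19 and 21 in VPA (log2 fold change 1.59 ± 0.55 (SE), adjusted p = 0.0471). VAMP4, of the trans-Golgi network, had 515, 523 and 715 in vehicle and 472, 327 and 356 in VPA (log2 fold change -0.60 ± 0.18 (SE), adjusted p = 0.0232). The VAMP8 call was lost without vehicle replicate 1, vehicle replicate 2, VPA replicate 1, VPA replicate 2 or VPA replicate 3 (adjusted p = 0.0895 to 0.147) and the VAMP4 call without VPA replicate 2 or VPA replicate 3 (adjusted p = 0.1 to 0.111). VAMP2, the SNARE of synaptic vesicles, had 1073, 1134 and 1112 in vehicle and 1068, 1010.1 and 1017 in VPA, and did not pass (log2 fold change -0.10, 95% interval -0.32 to 0.13, adjusted p = 0.49). VAMP1, which replaces VAMP2 in many spinal and motor terminals, had 238, 244 and 199.9 in vehicle and 169, 179 and 168 in VPA, without overlap, and did not pass (log2 fold change -0.40, 95% interval -0.76 to -0.05, adjusted p = 0.0795). It was past the threshold without vehicle replicate 3 (adjusted p = 0.0327) and in the single fit of all 9 libraries (adjusted p = 0.0485), and not in the other 11 alternatives. VAMP3 (log2 fold change 0.12, 95% interval -0.17 to 0.41, adjusted p = 0.536) and VAMP7 (log2 fold change 0.21, 95% interval -0.05 to 0.47, adjusted p = 0.192) did not pass either.

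Among the neuronal target SNAREs STX1A fell. It had normalised counts of 321, 219 and 277 in vehicle and 182, 133 and 199.6 in VPA, without overlap between the groups (log2 fold change -0.66 ± 0.20 (SE), adjusted p = 0.027). The call was lost without vehicle replicate 1, VPA replicate 1 or VPA replicate 2 (adjusted p = 0.0571 to 0.122), and BUD23 overlaps STX1A on the other strand with a mean count of 408% of that of STX1A. SNAP25 had 693, 939 and 1032 in vehicle and 889, 948 and 998 in VPA and the VPA libraries lay within the vehicle range (log2 fold change 0.09, 95% interval -0.23 to 0.41, adjusted p = 0.667). SNAP23, the SNAP25 relative of non-neuronal cells, had 158, 138 and 119 in vehicle and 94.4, 96.4 and 115 in VPA (log2 fold change -0.44, 95% interval -0.89 to 0.01, adjusted p = 0.126), and LRRC57 overlaps it on the other strand with 340% of its mean count.

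STX3 and STX4, target SNAREs of epithelial and other plasma membranes, rose with VPA. STX3 had normalised counts of 309, 212 and 270.4 in vehicle and 502, 438 and 556 in VPA and the groups did not overlap (log2 fold change 0.92 ± 0.16 (SE), adjusted p = 0.00192). The pseudogene FABP5P7 overlaps it with 37.4% of its mean count. STX4 had 168, 175 and 129 in vehicle and 229, 230.4 and 238 in VPA (log2 fold change 0.56 ± 0.17 (SE), adjusted p = 0.0287), and its call was lost without vehicle replicate 3, VPA replicate 1, VPA replicate 2 or VPA replicate 3 (adjusted p = 0.0536 to 0.0906). STX2 did not pass (log2 fold change -0.29, 95% interval -0.60 to 0.01, adjusted p = 0.133). STX11, a syntaxin of immune cells, had 0 reads in each vehicle library and 5, 13 and 14 in the VPA libraries. Depth allows up to 3 counts in a library at 0, STX11 did not pass the filter, and no test was made.

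Of the 9 syntaxins of inner membranes, 3 rose and 1 fell. STX16, of the trans-Golgi network, had normalised counts of 2116, 2203 and 2055 in vehicle and 1604, 1448 and 1642 in VPA, with every VPA library below every vehicle library (log2 fold change -0.44 ± 0.10 (SE), adjusted p = 0.00698), and its call was lost without VPA replicate 2 (adjusted p = 0.06). The read-through gene STX16-NPEPL1 overlaps it with 11.0% of its mean count. STX8 of late endosomes (log2 fold change 0.53 ± 0.16 (SE), adjusted p = 0.0251), STX18 of the endoplasmic reticulum (log2 fold change 0.49 ± 0.13 (SE), adjusted p = 0.0148) and STX17 of autophagosomes (log2 fold change 0.41 ± 0.14 (SE), adjusted p = 0.0453) rose by less than 1.5-fold. Their calls were lost without VPA replicate 1 or VPA replicate 3 (adjusted p = 0.0548 to 0.128), without vehicle replicate 2, VPA replicate 1 or VPA replicate 3 (adjusted p = 0.0607 to 0.0682) and without vehicle replicate 2, VPA replicate 1, VPA replicate 2 or VPA replicate 3 (adjusted p = 0.0755 to 0.17). NSG1 and STX18-AS1 overlap STX18 on the other strand with 121% and 13.3% of its mean count, and AC087501.4 overlaps STX8 with 16.2%. The other syntaxins of inner membranes, STX5, STX6, STX7, STX10 and STX12, did not pass, with log2 fold changes from -0.33 to 0.25. NSF, the ATPase that takes used SNARE complexes apart, had 869.7, 1002 and 1035 in vehicle and 863, 1042 and 854 in VPA (log2 fold change -0.07, 95% interval -0.35 to 0.20, adjusted p = 0.686), and the pseudogene RPS7P11 overlaps it with 33.3% of its mean count.

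The proteins that prepare SNAREs moved in both directions. STXBP5 (tomosyn), which competes with VAMP2 for the target SNAREs, had normalised counts of 404, 418 and 454 in vehicle and 268, 238 and 273 in VPA, and all VPA libraries lay below all vehicle libraries (log2 fold change -0.71 ± 0.14 (SE), adjusted p = 0.00273). STXBP3, the Munc18 form of non-neuronal plasma membranes, had 1029, 1138 and 1348 in vehicle and 834, 888 and 803 in VPA (log2 fold change -0.48 ± 0.12 (SE), adjusted p = 0.0137), and its call was lost without VPA replicate 1 or VPA replicate 3 (adjusted p = 0.061 to 0.0693). UNC13A (Munc13-1), the main priming factor of central synapses, rose, with 608, 596 and 572 in vehicle and 789.7, 867 and 879.8 in VPA and no overlap (log2 fold change 0.52 ± 0.11 (SE), adjusted p = 0.0054). STXBP6 (amisyn) had 98.9, 108 and 42.5 in vehicle and 172, 199 and 144 in VPA (log2 fold change 1.05 ± 0.30 (SE), adjusted p = 0.0221), and its call was lost without VPA replicate 1 or VPA replicate 2 (adjusted p = 0.0632 to 0.0904). UNC13B had a log2 fold change 0.07, 95% interval -0.15 to 0.29, adjusted p = 0.624, and STXBP2, STXBP4 and UNC13D did not pass. UNC13C had between 1 and 6 reads in each vehicle and VPA library.

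CPLX2 fell and CPLX1 did not pass. CPLX2, the complexin of most excitatory neurons, had normalised counts of 1853, 2063 and 2332 in vehicle and 978, 1111 and 1458 in VPA. Every VPA library was below every vehicle library (log2 fold change -0.81 ± 0.15 (SE), adjusted p = 0.0022). CPLX1 had 249.7, 164 and 174 in vehicle and 269, 225 and 310.1 in VPA, where the lowest VPA library was below the highest vehicle library (log2 fold change 0.45, 95% interval 0.02 to 0.89, adjusted p = 0.104). CPLX1 was called higher without vehicle replicate 1 (adjusted p = 0.0118) and in no other alternative.

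Active zone genes moved in both directions, 2 up and 2 down of 6. RIMS4, a short RIM protein, had normalised counts of 138, 74.1 and 115 in vehicle and 489, 487 and 536 in VPA, the clearest separation of this group (log2 fold change 2.21 ± 0.20 (SE), adjusted p = 3.96e-05). RIMS3, the short RIM protein with the highest vehicle level, went the other way, with 2327, 1949 and 2496 in vehicle and 1586, 1513 and 1698 in VPA (log2 fold change -0.50 ± 0.11 (SE), adjusted p = 0.0076). BSN had 478, 580.4 and 581 in vehicle and 269, 428 and 391 in VPA (log2 fold change -0.59 ± 0.17 (SE), adjusted p = 0.024), while its partner scaffold PCLO had 234, 311 and 396 in vehicle and 402, 495 and 500.4 in VPA (log2 fold change 0.57 ± 0.19 (SE), adjusted p = 0.0359). The groups of RIMS3, BSN and PCLO did not overlap. The RIMS3 call was lost without VPA replicate 2 (adjusted p = 0.0535), that of BSN without vehicle replicate 2, VPA replicate 1 or VPA replicate 3 (adjusted p = 0.0597 to 0.107) and that of PCLO without vehicle replicate 1, vehicle replicate 2, VPA replicate 2 or VPA replicate 3 (adjusted p = 0.06 to 0.127). RIMS1, with 36.2, 88.2 and 63.2 in vehicle and 58.0, 71.1 and 59.0 in VPA, did not pass (log2 fold change 0.01, 95% interval -0.71 to 0.73, adjusted p = 0.989), nor did RIMS2 (log2 fold change 0.36, 95% interval -0.11 to 0.82, adjusted p = 0.222).

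Of the 11 genes of the vesicle membrane and vesicle pool, 3 rose and 1 fell. RAB3B, a RAB GTPase of secretory vesicles, had normalised counts of 500.5, 446 and 496 in vehicle and 896, 843 and 811 in VPA without overlap (log2 fold change 0.82 ± 0.12 (SE), adjusted p = 0.000462), and RAB3A, the RAB3 form of most synapses, had 536, 515 and 389 in vehicle and 296, 319.8 and 333 in VPA (log2 fold change -0.60 ± 0.15 (SE), adjusted p = 0.0114). MPV17L2 overlaps RAB3A on the other strand with 71.0% of its mean count, and the call was lost without vehicle replicate 2 or VPA replicate 1 (adjusted p = 0.0525 to 0.0626). SYN2, a synapsin that tethers reserve vesicles, had 27.4, 27.2 and 52.8 in vehicle and 77.7, 96.4 and 122 in VPA (log2 fold change 1.46 ± 0.33 (SE), adjusted p = 0.00616), and TIMP4, which overlaps it, has 24.2% of its mean count. SV2B had 1, 3 and 3 reads in vehicle and 18, 11 and 11 in VPA (adjusted p = 0.0168), and no fold is given because vehicle did not exceed 3 reads in any library. The SV2B call was lost without vehicle replicate 1 or VPA replicate 1 (adjusted p = 0.0528 to 0.0834). SYP had 565, 403 and 451 in vehicle and 367, 331 and 438 in VPA (log2 fold change -0.32, 95% interval -0.67 to 0.03, adjusted p = 0.153). SV2A had 2075, 1861 and 1887 in vehicle and 1637, 1712 and 1729 in VPA (log2 fold change -0.20, 95% interval -0.41 to 0.02, adjusted p = 0.149), so its groups did not overlap and the test was not passed. SYN1 had 251, 304 and 233 in vehicle and 235, 227 and 285 in VPA (log2 fold change -0.07, 95% interval -0.44 to 0.29, adjusted p = 0.769), and ARAF and TIMP1 overlap SYN1, ARAF with 257% of its mean count. SV2C, SYN3, RAB3C and RAB3D did not pass, with log2 fold changes from 0.05 to 0.78.

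**Figure D3:**
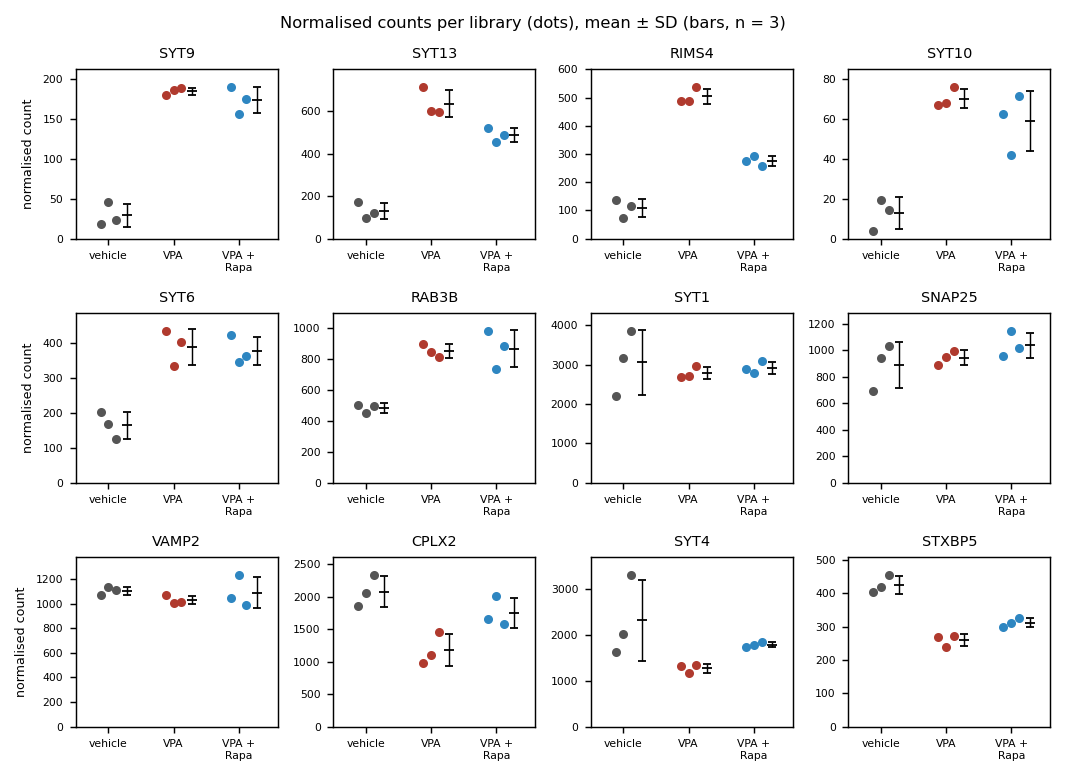
Normalised counts of 12 genes in each of the 9 libraries, with dots for libraries and bars for the mean and SD of 3. SYT9, SYT13, RIMS4, SYT10, SYT6 and RAB3B are above every vehicle library in both treated conditions, while SYT1, SNAP25 and VAMP2 overlap between vehicle and VPA + Rapamycin. CPLX2 and SYT4 are lowest in VPA, and STXBP5 is below vehicle in both.

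VPA + Rapamycin against VPA asks what Rapamycin changed when it was added to VPA. Of 69 members tested, 3 were higher (4.35%) and 5 lower (7.25%), beside 3.01% higher and 3.73% lower (6.74% in either direction) among all 17317 genes tested. The share that was higher was close to this background, and the share that was lower was above it with 5 genes. The median of the members was -0.02 and that of all genes 0.0039 on the log2 scale. These calls depend on the estimate of spread. With all 9 libraries in a single fit, 0 members were higher and 1 lower, and RIMS4 alone stayed called (adjusted p = 0.0414), where the other 7 had the same direction with adjusted p from 0.0799 to 0.316. DESeq2 on the same pair called 4 higher and 6 lower, and the fit with the replicate number as a block 5 and 6. Without VPA replicate 2 there were 1 higher and 3 lower, and without VPA + Rapamycin replicate 3, 2 and 2.

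The genes lower with Rapamycin were RIMS4, VAMP5, STX3, VAMP3 and SYT13, and 4 of these, all but VAMP3, had risen with VPA. RIMS4 had normalised counts of 489, 487 and 536 with VPA alone and 275, 293 and 256 with Rapamycin added, with a wide gap between the groups (log2 fold change -0.87 ± 0.11 (SE), adjusted p = 9.86e-05). VAMP5 had 185, 162 and 163 with VPA alone and 109.8, 89.3 and 87.1 with Rapamycin added (log2 fold change -0.83 ± 0.18 (SE), adjusted p = 0.00885). STX3 had 502, 438 and 556 with VPA alone and 389, 317 and 324 with Rapamycin added (log2 fold change -0.54 ± 0.12 (SE), adjusted p = 0.0106). None of the 3 overlapped between the conditions. SYT13 had 713, 603 and 596 with VPA alone and 524, 458 and 488 with Rapamycin added (log2 fold change -0.38 ± 0.10 (SE), adjusted p = 0.0349). Its groups did not overlap either. VAMP3 had 1563, 1308 and 1099 with VPA alone and 1112, 884 and 1034 with Rapamycin added, where VPA replicate 3 lay below the highest library with Rapamycin (log2 fold change -0.39 ± 0.11 (SE), adjusted p = 0.0409). The call of STX3 was lost without VPA + Rapamycin replicate 3 or VPA replicate 3 (adjusted p = 0.0535 to 0.0584), that of SYT13 without VPA + Rapamycin replicate 2, VPA + Rapamycin replicate 3, VPA replicate 1 or VPA replicate 2 (adjusted p = 0.0748 to 0.178) and that of VAMP3 without VPA + Rapamycin replicate 2, VPA + Rapamycin replicate 3, VPA replicate 1 or VPA replicate 2 (adjusted p = 0.101 to 0.227). The VPA libraries serve both comparisons, so a high VPA value enters both.

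The genes higher with Rapamycin were CPLX2, SYT4 and SYP, of which CPLX2 and SYT4 had fallen with VPA. CPLX2 had normalised counts of 978, 1111 and 1458 with VPA alone and 1662, 2009 and 1588 with Rapamycin added (log2 fold change 0.57 ± 0.12 (SE), adjusted p = 0.00659). SYT4 had 1324, 1158 and 1341 with VPA alone and 1732, 1775 and 1847 with Rapamycin added (log2 fold change 0.49 ± 0.08 (SE), adjusted p = 0.000927). In both, the conditions did not overlap, and the libraries with Rapamycin overlapped the range of vehicle. SYP, the most abundant membrane protein of the synaptic vesicle, had 367, 331 and 438 with VPA alone and 479, 598 and 454 with Rapamycin added (log2 fold change 0.43 ± 0.13 (SE), adjusted p = 0.0459). The call of CPLX2 was lost without VPA replicate 2 (adjusted p = 0.0501) and that of SYP without VPA + Rapamycin replicate 2, VPA + Rapamycin replicate 3, VPA replicate 1 or VPA replicate 2 (adjusted p = 0.0515 to 0.216). Genes of the core machinery did not pass, among them SNAP25 (log2 fold change 0.14, 95% interval -0.05 to 0.32, adjusted p = 0.391), VAMP2 (log2 fold change 0.08, 95% interval -0.10 to 0.27, adjusted p = 0.647) and SYT1 (log2 fold change 0.07, 95% interval -0.09 to 0.22, adjusted p = 0.65). SYN1 (log2 fold change 0.46, 95% interval 0.16 to 0.75, adjusted p = 0.0584) and BSN (log2 fold change 0.43, 95% interval 0.13 to 0.73, adjusted p = 0.0826) missed the threshold. Of 13 alternatives each, 4 called SYN1 and 3 called BSN, and in the single fit their adjusted p was 0.239 and 0.281. STX1A (log2 fold change 0.18, 95% interval -0.24 to 0.59, adjusted p = 0.658), RAB3A (log2 fold change 0.26, 95% interval -0.01 to 0.54, adjusted p = 0.261) and UNC13A (log2 fold change -0.14, 95% interval -0.34 to 0.06, adjusted p = 0.414) did not pass.

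VPA + Rapamycin against vehicle gives what remained with both drugs. Of 66 members tested, 11 were higher (16.7%) and 5 lower (7.58%), beside 9.81% and 9.22% (19.0% in either direction) of all 17383 genes tested, so the share of members was above the background for higher and below it for lower genes. The median was 0.16, and that of all genes -0.0009. With at least 10 counts required in every library, 10 of 64 members tested were higher and 5 lower, with a median of 0.13. Without vehicle replicate 3 there were 17 higher and 4 lower, without VPA + Rapamycin replicate 1 there were 7 and 0, and with the replicate block 15 and 5. All 11 raised genes, SYT3, SYT6, SYT9, SYT10, SYT13, VAMP5, RIMS4, SYN2, RAB3B, STX4 and STX8, and all 5 lowered genes, among them RIMS3, STX16, STXBP3 and STXBP5, were also called in VPA against vehicle, which uses the same vehicle libraries. SYT9 had normalised counts of 189, 156 and 175 with Rapamycin beside 18.6, 45.7 and 23.8 in vehicle (log2 fold change 2.57 ± 0.31 (SE), adjusted p = 0.000613). SYT13, with 524, 458 and 488 beside 171, 99.1 and 122, was also above vehicle in every library (log2 fold change 1.90 ± 0.20 (SE), adjusted p = 0.000286). RIMS4, with 275, 293 and 256 beside 138, 74.1 and 115, stayed above vehicle in every library though lower than in VPA (log2 fold change 1.33 ± 0.22 (SE), adjusted p = 0.00306). RAB3B had 977, 736 and 882 (log2 fold change 0.85 ± 0.14 (SE), adjusted p = 0.00248) and SYT6 424, 347 and 363 (log2 fold change 1.19 ± 0.19 (SE), adjusted p = 0.00262). SYT10 had 62.7, 42.2 and 71.5 (log2 fold change 2.22 ± 0.48 (SE), adjusted p = 0.0111) and SYT3 245, 261 and 263 (log2 fold change 0.94 ± 0.17 (SE), adjusted p = 0.00499). These 7 calls were kept in all 6 fits that left out 1 library.

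The remaining calls against vehicle were less firm. VAMP5 (log2 fold change 1.09 ± 0.26 (SE), adjusted p = 0.0157), SYN2 (log2 fold change 1.29 ± 0.31 (SE), adjusted p = 0.0173), STX4 (log2 fold change 0.72 ± 0.19 (SE), adjusted p = 0.0223) and STX8 (log2 fold change 0.53 ± 0.15 (SE), adjusted p = 0.0307) lost theirs without vehicle replicate 2 or VPA + Rapamycin replicate 1 (adjusted p = 0.0615 to 0.074), without vehicle replicate 2, VPA + Rapamycin replicate 1 or VPA + Rapamycin replicate 2 (adjusted p = 0.052 to 0.0746), without VPA + Rapamycin replicate 1 or VPA + Rapamycin replicate 3 (adjusted p = 0.0793 to 0.101) and without vehicle replicate 2, VPA + Rapamycin replicate 1, VPA + Rapamycin replicate 2 or VPA + Rapamycin replicate 3 (adjusted p = 0.0677 to 0.132). STXBP3 (log2 fold change -0.45 ± 0.13 (SE), adjusted p = 0.0311), STXBP5 (log2 fold change -0.44 ± 0.13 (SE), adjusted p = 0.038), RIMS3 (log2 fold change -0.38 ± 0.12 (SE), adjusted p = 0.0449) and STX16 (log2 fold change -0.33 ± 0.10 (SE), adjusted p = 0.0493) were lower by 1.26-fold to 1.37-fold. Leaving out any library of VPA + Rapamycin brought the count of lowered members from 5 to 0, and leaving out vehicle replicate 2 brought it to 1. STXBP5 illustrates the data behind these calls, with 404, 418 and 454 (vehicle), 268, 238 and 273 (VPA) and 300.0, 311 and 326 (VPA + Rapamycin), where the libraries with Rapamycin lay between the other conditions and overlapped neither. CPLX2 (log2 fold change -0.25, 95% interval -0.53 to 0.04, adjusted p = 0.203) and SYT4 (log2 fold change -0.37, 95% interval -0.83 to 0.09, adjusted p = 0.236) did not pass against vehicle. SNAP25 (log2 fold change 0.23, 95% interval -0.10 to 0.56, adjusted p = 0.321), VAMP2 (log2 fold change -0.02, 95% interval -0.28 to 0.24, adjusted p = 0.927), SYT1 (log2 fold change -0.07, 95% interval -0.44 to 0.31, adjusted p = 0.814) and UNC13A (log2 fold change 0.37, 95% interval 0.11 to 0.64, adjusted p = 0.0535) did not pass either. UNC13A was called higher in 4 of 13 alternatives, among them the single fit of all 9 libraries (adjusted p = 0.0217).

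**Figure D4:**
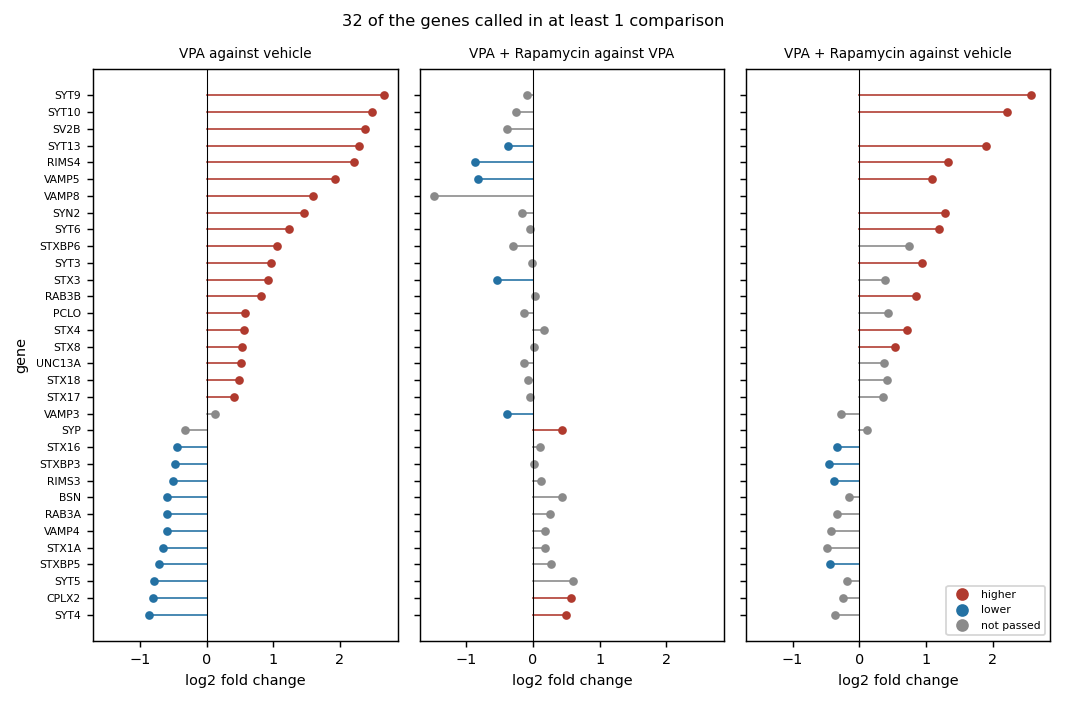
Log2 fold changes of 32 genes called in at least 1 comparison, in the same order in each panel. Red is higher and blue lower at an adjusted p of at most 0.05, grey did not pass, and a gene without a point was not tested. The raised genes of the first panel that were tested in the third lie to the right of 0 there, and the changes of the middle panel are smaller than those of the first except for VAMP3 and SYP.

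Across the 3 comparisons, 8 genes were higher in both treated conditions than in vehicle without a call between the treated conditions, and 5 were lower in both. Any pair of comparisons shares the libraries of a condition. The share of all genes with each pattern was not taken, so these counts do not set the members apart from other genes. RIMS4, SYT13 and VAMP5 were higher in both and lower with Rapamycin than with VPA alone. CPLX2 and SYT4 were lower with VPA, higher with Rapamycin than with VPA alone, and not called against vehicle. STX3 was higher with VPA, lower with Rapamycin and not called against vehicle. The 35 members that were tested in all 3 comparisons and passed in none of the main fits included SNAP25, VAMP1, VAMP2, SYT1, SYT2, SYT11, SYN1, SV2A, NSF, RIMS1 and CPLX1.

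Other genes of transmitter loading, docking, endocytosis and dense-core vesicles were followed in lists of 66 genes outside the members, of which 63 were tested. With VPA 18 were higher (28.6%) and 12 lower (19%), beside 16.4% and 15.7% of all genes tested. The median log2 fold change of the lists was 0.06. Without vehicle replicate 3 there were 22 and 15 of 64 tested. Of 13 genes of transmitter loading and the vesicle membrane 5 rose and 3 fell, and of 11 other SNARE partners 3 rose and 1 fell. SLC17A6 (VGLUT2), which loads glutamate in spinal neurons, had normalised counts of 170.4, 217 and 485 (vehicle), 9.83, 7.11 and 8.43 (VPA) and 30.4, 33.6 and 36.3 (VPA + Rapamycin). It fell with VPA (log2 fold change -5.08 ± 0.45 (SE), adjusted p = 3.03e-05) and was higher with Rapamycin than with VPA alone (log2 fold change 1.97 ± 0.42 (SE), adjusted p = 0.00865), still below every vehicle library. SLC17A7 (VGLUT1), the other main glutamate transporter, had 17.6, 7.62 and 35.2 (vehicle), 151, 134 and 133 (VPA) and 70.6, 93.1 and 88.1 (VPA + Rapamycin), higher with VPA (log2 fold change 2.78 ± 0.40 (SE), adjusted p = 0.000494) and lower once Rapamycin was added (log2 fold change -0.73 ± 0.19 (SE), adjusted p = 0.0288). SLC32A1, which loads GABA and glycine, had 278, 298 and 247 (vehicle), 147, 64.0 and 126 (VPA) and 222, 256 and 191 (VPA + Rapamycin). It fell with VPA (log2 fold change -1.28 ± 0.26 (SE), adjusted p = 0.00363), was higher with Rapamycin (log2 fold change 0.99 ± 0.23 (SE), adjusted p = 0.0128) and was not called against vehicle (log2 fold change -0.30, 95% interval -0.66 to 0.07, adjusted p = 0.239). SLC18A3, the acetylcholine transporter of motor neurons, had 139, 179 and 269 (vehicle), 377, 443 and 473 (VPA) and 328, 420.4 and 549.6 (VPA + Rapamycin) and rose with VPA (log2 fold change 1.14 ± 0.22 (SE), adjusted p = 0.0027).

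Among docking proteins the calcium sensor DOC2B had normalised counts of 115, 56.6 and 227 in vehicle and 435, 354 and 468 in VPA (log2 fold change 1.66 ± 0.36 (SE), adjusted p = 0.00505), and 3 of 18 genes of that list rose and 3 fell (4 and 5 without vehicle replicate 3). NSF works with SNAP adaptors, of which NAPA, the general form, had 387, 371 and 383 in vehicle and 544, 519 and 557 in VPA (log2 fold change 0.51 ± 0.12 (SE), adjusted p = 0.00787) and NAPB, the neuronal form, 1345, 1426 and 1875 (vehicle), 944, 885 and 922 (VPA) and 1248, 1098 and 1292 (VPA + Rapamycin). NAPB fell with VPA (log2 fold change -0.75 ± 0.13 (SE), adjusted p = 0.00181) and was higher with Rapamycin than with VPA alone (log2 fold change 0.41 ± 0.08 (SE), adjusted p = 0.00661). Of 10 dense-core vesicle genes 4 rose with VPA and 3 fell. PCSK1, a peptide-processing protease, had 171, 122 and 120.2 (vehicle), 596, 665 and 602 (VPA) and 513, 392 and 405 (VPA + Rapamycin) (log2 fold change 2.17 ± 0.17 (SE), adjusted p = 1.42e-05), while the related protease PCSK2 had 225, 319 and 316 (vehicle), 105, 140.1 and 173 (VPA) and 182, 259 and 257 (VPA + Rapamycin) (log2 fold change -1.04 ± 0.22 (SE), adjusted p = 0.00441). SYPL2, a synaptophysin relative of muscle, had 5.88, 5.45 and 19.7 in vehicle and 90.5, 135 and 119 in VPA (log2 fold change 3.46 ± 0.43 (SE), adjusted p = 0.000242). In VPA + Rapamycin against VPA 6 of the 63 related genes were higher (9.52%) and 3 lower (4.76%), beside 3.01% and 3.73% of all genes tested. Against vehicle 14 were higher (22.2%) and 4 lower (6.35%), beside 9.81% and 9.22% of all genes tested. Without vehicle replicate 3 there were 18 and 7 in that comparison.

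Markers of cell types moved with VPA against vehicle, where 16.4% of all genes tested were higher and 15.7% lower. Of 12 pan-neuronal genes, 6 fell with VPA (DCX, ELAVL3, ELAVL4, MAP2, NEFM and TUBB3) and MAPT rose, with a median log2 fold change of -0.52. Without vehicle replicate 3, 5 fell (all but TUBB3) and MAPT rose, with a median of -0.46. Their summed normalised count ranged from 28448 to 51272 for vehicle, from 25494 to 28018 for VPA and from 27060 to 30085 with Rapamycin. In VPA + Rapamycin against VPA 3 of the 12 were higher and 1 lower, and against vehicle 1 was higher and 3 lower, also without vehicle replicate 3. The neuronal RNA-binding protein ELAVL4 had 2714, 3198 and 4585 (vehicle), 1529, 1379 and 1669 (VPA) and 1928, 1908 and 2112 (VPA + Rapamycin) (log2 fold change -1.20 ± 0.17 (SE), adjusted p = 0.000508). Beside this the sum of the 39 nerve terminal members ranged from 24117 to 28581 for vehicle, from 23739 to 25744 for VPA and from 25937 to 26859 with Rapamycin, so its ranges overlapped between vehicle and both treated conditions. Abundant genes weigh most in this sum, such as SYT1, UNC13B and SYT4 with vehicle means of 3066, 2607 and 2315. It does not show the changes of single genes, of which 11 rose and 9 fell with VPA among 38 tested. The sum of 8 mesenchymal markers ranged from 2863 to 5589 for vehicle, from 10236 to 12725 for VPA and from 4953 to 6896 with Rapamycin. COL1A1 and COL1A2 made up 67.9% to 88.1% of this sum in every library. COL1A1, COL1A2 and THY1 rose with VPA and the other 5 did not pass, with estimates below 0 for COL3A1 and PRRX1. Without vehicle replicate 3, 6 rose (LUM, PRRX1 and TWIST1 as well). Once Rapamycin was added, 5 of the 8 were lower. The 8 progenitor markers summed to 41693 to 49746 in vehicle and 50552 to 53965 in VPA, where HES5 rose, MSI1 fell and 6 did not pass (2 rose and 2 fell without vehicle replicate 3). HES5 alone had 5200, 5229 and 5329 in vehicle and 9798, 9133 and 11502 in VPA. The median log2 fold change of the 8 was 0.02, so the higher sum does not show a rise of the list. Of the 8 HOX genes 7 fell with VPA, and the same 7 without vehicle replicate 3. Their sum was 21117, 21082 and 11995 in vehicle and 8746, 11464 and 10727 in VPA, so that vehicle replicate 3 lay close to VPA. Epithelial markers ranged from 136 to 807 counts in vehicle and from 511 to 941 in VPA, and KRT19 rose. Of 7 neural crest markers tested, 4 fell (SOX10, FOXD3 and TFAP2A among them) and ERBB3 rose. Without vehicle replicate 3, 3 fell and TFAP2A was not called. Glial markers summed to between 138 and 187 counts in every library, with S100B higher in VPA. The part of these cell types in the changes of the release genes was not tested. Of REST and 3 corepressors of the RCOR family, 2 were lower with VPA, REST and RCOR1. Without vehicle replicate 3, 2 were lower, RCOR1 and RCOR2, and REST was not called. REST, a repressor of many synaptic genes in non-neuronal cells, had 1284, 1319.9 and 1525 (vehicle), 1145, 1116 and 939 (VPA) and 1189, 1032 and 1177 (VPA + Rapamycin) and was lower with VPA (log2 fold change -0.37 ± 0.12 (SE), adjusted p = 0.0371), and its corepressor RCOR1 was lower as well (log2 fold change -0.29 ± 0.10 (SE), adjusted p = 0.0387).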

How the data were processed

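SCO messenger RNA was purified on poly-T beads, primed with random hexamers and made into libraries with a NEBNext Ultra kit. The submitters' processing notes name HISAT2 2.0.5 and featureCounts 1.5.0-p3, without the use of strand. Every pair of conditions has its own deposited table, whose gene positions match GRCh38. The deposited counts are raw whole reads per gene, and each gene listed has at least 2 reads in its table. The deposited FPKM values are the authors' counts scaled by gene length and library, and served for levels between genes. A further 18 columns of library values scaled by the authors were not used. The tables also hold fold changes and p-values of the authors' own comparisons, which were not used.

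Tests used edgeR 4.0.16 under R 4.3.3. Each pair was fitted on its own table over all genes that pass filterByExpr, with TMM scaling and the quasi-likelihood F test, two-sided, and p-values were adjusted by Benjamini-Hochberg over all genes tested, with a threshold of 0.05 and no minimum fold. Standard errors and 95% intervals come from the F statistic. For normalised counts, TMM factors were set once over all 9 libraries. A gene that overlaps a member on the genome and has over 10% of its mean count was named for members described with values of their own, since the use of strand is not given in the sources used here. This holds for 18 of 71 members. The limit of 3 counts covers counting error only. The fit was tested on simulated data.

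The members and lists were chosen with earlier results of these data known. Named genes were a fixed set of 23 core members, each member past the threshold (at most 12 in each direction of a comparison by p), at most 3 genes of each related or marker list, and REST. Some members and 1 marker are not reported by name here. Further members are named to account for the others, and members of the lists named beyond this rule were chosen after their values were seen. Alternatives were DESeq2 1.42.0, RLE and upper-quartile scaling, no filter, at least 10 counts in every library, 1 fit of all 9 libraries, a replicate block, a minimum 2-fold change (1 on the log2 scale), and each library left out in turn. Counts of the roles and lists without vehicle replicate 3 were added after seeing the data. DESeq2 values left without an adjusted p were kept out of counts.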

Additional observations from a re-analysis of the deposited data

How the results depend on the processing

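Over 1363 alternative values of the named members, 1230 kept their direction and side of the threshold, 89 lost a call, 25 gained one and 19 changed sign, all 19 among values not called. The share of all genes called was taken for the main fits only. Counts of members under the alternatives therefore do not show whether the members differ from other genes. When a change of 1 or more on the log2 scale was required, the counts higher and lower were 10 and 0 for VPA against vehicle, 0 and 0 for VPA + Rapamycin against VPA, and 7 and 0 for VPA + Rapamycin against vehicle. For VPA + Rapamycin against VPA, 5 were higher with no filter on low counts, and 0 were higher and 1 lower in the single fit of all 9 libraries, where the spread is shared with vehicle. For VPA + Rapamycin against vehicle, 2 were lower under upper-quartile scaling and 2 with no filter. VAMP2 in that comparison turned to 0.01 on the log2 scale under upper-quartile scaling. The cause was not tested.

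Leaving out 1 library gave 13 to 23 higher, 6 to 15 lower and a median of 0.12 to 0.25 for VPA against vehicle. It gave 1 to 4 higher, 2 to 6 lower and a median of -0.06 to 0.05 for VPA + Rapamycin against VPA, and 7 to 17 higher, 0 to 7 lower and 0.05 to 0.19 against vehicle. Signs turned in these fits for genes not called in the main fits. In VPA against vehicle RIMS1 ranged from -0.27 to 0.34, SNAP25 from -0.06 to 0.21, SYN1 from -0.18 to 0.05, SYT1 from -0.32 to 0.06 and VAMP3 from -0.01 to 0.24. In VPA + Rapamycin against VPA CPLX1 ranged from -0.02 to 0.21, NSF from -0.08 to 0.08, SNAP23 from -0.18 to 0.15, STX1A from -0.07 to 0.33 and VAMP2 from -0.02 to 0.14. Against vehicle SYP ranged from -0.01 to 0.26, SYT1 from -0.26 to 0.13 and VAMP2 from -0.11 to 0.05.

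Deviations of libraries with the same replicate number had correlations over 18008 genes of -0.057 to 0.041 for VPA against vehicle, -0.019 to 0.054 for VPA + Rapamycin against VPA and 0.056 to 0.143 for VPA + Rapamycin against vehicle, where all 3 were above 0. Not every pair exceeded 0.1 and the labels do not say what the shared prefixes mark, so the main fits do not pair the libraries. Low correlations do not exclude pairing. The paper assigns the libraries of a condition to different clones. If the prefixes mark these clones, the design is paired and the fits with the replicate block apply. Not every library correlated best with its own number. With the replicate block the counts were 19 higher and 12 lower, 5 and 6, and 15 and 5, with medians of 0.20, -0.02 and 0.17. The block gained SV2C and STXBP2 and lost STX17 and VAMP8 in the first comparison, gained SYN1, BSN and STXBP2 in the second, and gained PCLO, STX18, STXBP6, SYT2 and VAMP4 and lost STX16 in the third. Reads per library limit the genes with under 20 counts, such as SV2B, STX11 and UNC13C.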

Other observations

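Of 11 genes of vesicle endocytosis, the step that retrieves vesicle membrane after release, 3 rose with VPA and 2 fell. These shares are 27.3% and 18.2%, beside 16.4% and 15.7% of all genes tested. SH3GL2 (endophilin A1), which bends membrane and brings in the uncoating machinery, had normalised counts of 41.1, 79.5 and 53.9 (vehicle), 132, 163 and 148 (VPA) and 103, 138 and 105 (VPA + Rapamycin) and was higher in both treated conditions than in vehicle (VPA against vehicle: log2 fold change 1.35 ± 0.26 (SE), adjusted p = 0.00297). SH3GL3, a second endophilin, and DNM2, the dynamin of all cells, also rose (0.92 and 0.35 on the log2 scale, adjusted p = 0.0172 and 0.0291). DNM1, the neuronal dynamin that cuts vesicles free, had 2936, 2467 and 2277 (vehicle), 1686, 1783 and 1879 (VPA) and 1736, 2224 and 2031 (VPA + Rapamycin) and was lower with VPA (log2 fold change -0.52 ± 0.12 (SE), adjusted p = 0.00606). BIN1, an amphiphysin relative, had 1590.5, 1294 and 1394 (vehicle), 1033, 1069 and 1084 (VPA) and 1258, 1431 and 1311 (VPA + Rapamycin), lower with VPA (log2 fold change -0.42 ± 0.11 (SE), adjusted p = 0.0138) and higher once Rapamycin was added (log2 fold change 0.33 ± 0.08 (SE), adjusted p = 0.0151). In VPA + Rapamycin against VPA, BIN1 was the 1 gene of the 11 past the threshold. AMPH, SYNJ1, SNAP91 and ITSN1 did not pass with VPA, with log2 fold changes from -0.22 to 0.12. SH3GL3 and DNM2 were named after their values were seen.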
